A study of Mus musculus with 8 samples.

Results

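Transcripts of 10 genes that mark stellate cells and fibroblasts were compared between pancreatic tumors and liver tumors in mice. The genes were chosen by symbol: the quiescent stellate genes Reln, Hgf, Ngfr and Des, the contractile genes Acta2 and Tagln, and the matrix fibroblast genes Pdgfra, Dcn, Dpt and Mfap5. They are 10 of 52459 genes in the bulk count table. Both groups carried FC1242, a murine KPC pancreatic cancer line, in C57BL/6 mice that had received 100000 cells. In the primary group the cells were placed in the pancreas, and in the liver group they gave metastatic tumors of the liver; tumors of both groups were taken after 3 weeks. Each group had 3 bulk RNA libraries of whole tumor tissue, and a sort for CD45+ cells added 1 single-cell library from either site. The host kept its own liver and pancreas cells, all tumors came from 1 cell line, and the labels give no age, sex or batch and do not say whether the 3 libraries of a group came from separate mice. P-values therefore measure the spread between these libraries.

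Hepatic stellate cells lie between the liver's sinusoidal endothelium and its hepatocytes, store vitamin A when quiescent, and turn into contractile, matrix-secreting myofibroblasts after injury. Pancreatic stellate cells are their counterpart in the pancreas, and both are known sources of the fibroblasts in pancreatic cancer. Quiescent stellate cells are known for reelin, hepatocyte growth factor, the neurotrophin receptor NGFR and desmin, whereas smooth muscle actin and transgelin mark contractile cells. Decorin, dermatopontin and microfibril-associated protein 5 are secreted into the matrix, and PDGFRA is a growth factor receptor widely used to mark fibroblasts.

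The bulk libraries held 27481390 to 36743247 reads. Levels are given as CPM, counts scaled to 1000000 per library after a correction for composition. The correction matters because 519 genes called over 100-fold higher in the liver tumors took 16.1% to 25.6% of liver library reads and at most 0.0551% of primary ones. Hepatocyte markers, of which 14 of 14 were called as higher, summed to 69680 to 140400 CPM in the liver tumors and 145 to 609 CPM in the primary ones. Primary replicate 1 stood apart in 7 adrenal and endocrine markers such as the steroid enzyme gene Cyp11a1, with a summed level of 783 CPM beside 33.1 and 25.2 CPM in primary replicates 2 and 3.

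Of the 10 genes, 9 were higher in the liver tumors and 1, Mfap5, was lower, with adjusted p-values from 0.000119 to 0.0190 in edgeR's quasi-likelihood test with Benjamini-Hochberg adjustment at 0.05. Over all 16487 tested genes, 16.7% were called as higher (2755) and 6.26% as lower (1032; 2612 and 1689 with upper-quartile factors), and the median log2 change was -0.07, beside 2.35 over the 10 genes. The groups overlapped for none of the 10. Every liver library was above every primary one for 9 of them, as for 23.8% of all tested genes, and below for Mfap5, as for 20.2%. Reln and Ngfr passed the filter on low counts only through the liver libraries; of the 8 genes that would pass it in either group alone, 7 were higher and 1 was lower. Without primary replicate 1, 9 of the 10 were still called as higher and 1 as lower. The genes had been proposed with results of these data known, so their count is a description. In bulk tissue, fewer cells of a type and less RNA per cell cannot be told apart.

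**Figure D1:**
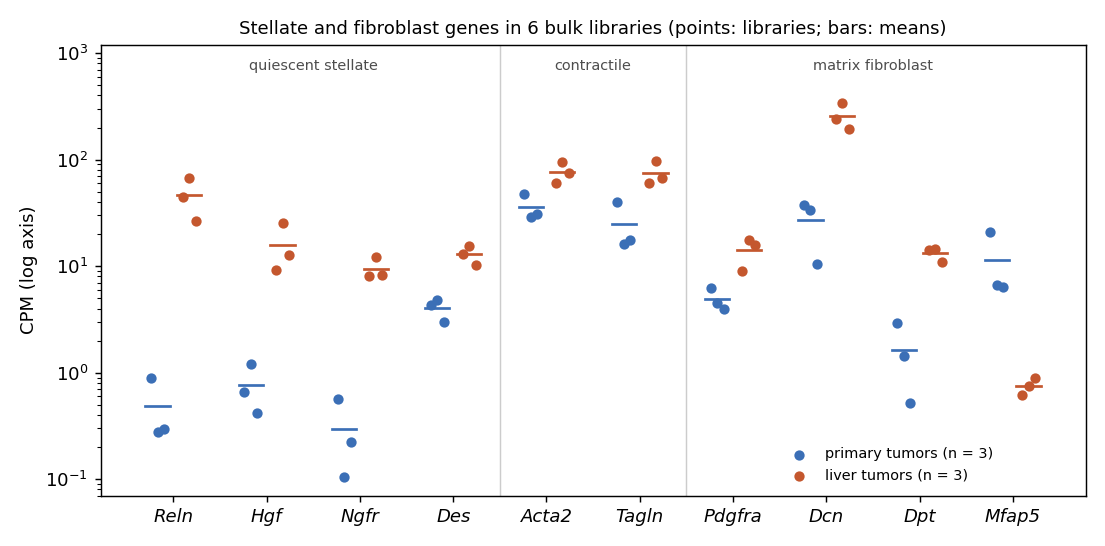
CPM on a log axis (vertical) of the 10 genes (horizontal) in each bulk library; points are libraries, with 3 per site, and bars are group means. The liver libraries lie above the primary ones for every gene but Mfap5, and the gap is widest for Reln, from 0.487 to 46.2 CPM.

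Reln had the largest change of the 10. It encodes reelin, a large secreted glycoprotein that signals through the lipoprotein receptors VLDLR and LRP8 and that stellate cells of the healthy liver are known to make. Its gene lies on chromosome 5 at 21884454 to 22344705 on the minus strand (GRCm38, RefSeq). The primary libraries held 0.884, 0.277 and 0.298 CPM (36, 8 and 12 reads), and the liver libraries 44.7, 67.4 and 26.4 CPM (1018, 1977 and 887 reads). The lowest liver library was 29.8-fold above the highest primary one. The log2 change was 6.53 (SE 0.58, adjusted p = 0.000119 in edgeR), from 0.487 ± 0.345 to 46.2 ± 20.6 CPM (SD, n = 3 per site).

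The 250 bases before the annotated start of Reln are shown because it moved the most, and those of Des because it is a stellate gene with a smaller rise; capitals mark GC boxes, searched as GGGCGG and its complement CCGCCC. The Reln window (chr5:22344706-22344955, minus strand) held 6 such runs at 80.0% G and C, and the Des window (chr1:75360042-75360291, plus strand) held 2 at 67.2%. Of the quiescent stellate genes not shown, Ngfr held 4 at 70.4%, and Hgf held 0 in each of its windows, at 50.8% and 51.2%. Over all 32851 windows of that length in the RefSeq table (GRCm38.p6), 0.886% held 6 or more and 16.7% held 2 or more, and the median G and C content was 52.4%. A run of these letters is a description of the window.
Reln: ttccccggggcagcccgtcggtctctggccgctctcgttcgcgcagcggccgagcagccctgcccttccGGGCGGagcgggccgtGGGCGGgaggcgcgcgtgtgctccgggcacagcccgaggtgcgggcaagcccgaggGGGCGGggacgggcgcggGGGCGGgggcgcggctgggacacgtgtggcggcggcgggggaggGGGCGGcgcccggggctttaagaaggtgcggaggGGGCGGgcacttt
Des: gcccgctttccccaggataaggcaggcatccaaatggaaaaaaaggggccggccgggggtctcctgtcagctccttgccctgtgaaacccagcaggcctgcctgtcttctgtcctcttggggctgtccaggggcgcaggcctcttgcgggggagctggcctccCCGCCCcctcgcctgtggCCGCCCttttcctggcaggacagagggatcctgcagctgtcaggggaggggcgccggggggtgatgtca

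Hgf encodes hepatocyte growth factor, the ligand of the receptor tyrosine kinase MET; in the liver it is made by non-parenchymal cells and acts on hepatocytes. It lies on chromosome 5 at 16553495 to 16619439. Primary libraries held 0.663, 1.21 and 0.422 CPM (27, 35 and 17 reads) and liver libraries 9.27, 25.3 and 12.8 CPM. Liver replicate 2 was the highest of the 6, and the groups did not overlap. The change was 4.39 on the log2 scale (SE 0.55, adjusted p = 0.000800 in edgeR). An uncharacterised gene, Gm43489, shares exon sequence with Hgf on the same strand and was counted with 0 to 17 reads per library.

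Ngfr encodes the low-affinity neurotrophin receptor, used as a marker of stellate cells and of Schwann cells. It lies on chromosome 11 at 95568818 to 95587698. The primary libraries held 0.565, 0.104 and 0.224 CPM, which rest on 23, 3 and 9 reads, against 8.04, 12.1 and 8.21 CPM in the liver libraries. The log2 change was 4.93 (SE 0.57, adjusted p = 0.000544 in edgeR), and the 3 liver libraries lay within 1.51-fold of each other. Of the 7 Schwann markers, which include Ngfr, 1 was called as higher (Ngfr itself) and 1 as lower (S100b), with summed levels of 21.2 to 34.4 CPM in primary and 18.1 to 27.6 CPM in liver tumors. The Schwann-defining genes Sox10 and Cdh19 were near 0, at means of 0.0164 and 0.0409 CPM in primary and 0.0114 and 0.0525 CPM in liver tumors.

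Des encodes desmin, the intermediate filament of muscle and of stellate cells. It lies on chromosome 1 at 75360292 to 75368579. It stood at 4.30, 4.85 and 2.98 CPM in the primary and 13.1, 15.6 and 10.4 CPM in the liver libraries. Its log2 change, 1.69 (SE 0.29, adjusted p = 0.00471 in edgeR), was the smallest of the 4 quiescent stellate genes. Of the 6 skeletal muscle markers, which include Des, 2 could be tested and Des was called as higher; Acta1 and Ckm were at means of 0.392 and 0.0594 CPM in primary and 0.0884 and 0.0440 CPM in liver tumors, and Myh4 had no reads in the liver libraries. The summed level of these markers was 5.19 to 8.24 CPM in primary and 12.1 to 16.8 CPM in liver tumors, most of it Des.

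Acta2 encodes alpha smooth muscle actin, the classic marker of activated stellate cells and of myofibroblasts; it lies on chromosome 19 at 34240336 to 34255585. The primary libraries held 47.6, 29.0 and 31.1 CPM and the liver libraries 59.8, 95.7 and 75.3 CPM. The lowest liver library was 1.26-fold above the highest primary one, primary replicate 1, so the groups were separate but close. Its log2 change was 1.10 (SE 0.26, adjusted p = 0.0190 in edgeR). The call was lost without primary replicate 3 (1.004, adjusted p = 0.0633), liver replicate 2 (0.92, adjusted p = 0.0893) or liver replicate 3 (1.10, adjusted p = 0.0558). Other actin genes resemble Acta2 closely in sequence, and how reads shared between them were counted is not given in the sources used here.

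Tagln encodes transgelin, an actin-binding protein of smooth muscle and myofibroblasts, and lies on chromosome 9 at 45929628 to 45936058. Its primary libraries held 39.9, 16.2 and 17.7 CPM and its liver libraries 60.9, 96.1 and 67.2 CPM. Primary replicate 1 was again the highest of its group, and no primary library reached a liver one. Transgelin transcripts changed by 1.60 on the log2 scale (SE 0.37, adjusted p = 0.0180 in edgeR). It was not called without primary replicate 3 (1.41, adjusted p = 0.0571), liver replicate 1 (1.70, adjusted p = 0.0519) or liver replicate 2 (1.38, adjusted p = 0.0782). Exons of Pcsk7 lie opposite to those of Tagln, and without a stated strand setting their reads cannot be told apart there; Pcsk7 had 1310 to 1344 reads in primary and 1125 to 1453 in liver libraries.

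Pdgfra encodes the alpha receptor for platelet-derived growth factor and lies on chromosome 5 at 75151322 to 75198206. It rose the least among the matrix fibroblast genes that rose, from 6.17, 4.46 and 4.0 CPM in the primary libraries to 9.01, 17.4 and 15.9 CPM in the liver libraries. Liver replicate 1 was the lowest of its group, yet above all 3 primary libraries. The log2 change was 1.53 (SE 0.33, adjusted p = 0.0121 in edgeR), and the call was lost without liver replicate 2 (1.36, adjusted p = 0.0670).

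Dcn encodes decorin, a small leucine-rich proteoglycan that binds collagen fibrils, and lies on chromosome 10 at 97479500 to 97518163. The primary libraries held 37.2, 33.6 and 10.6 CPM and the liver libraries 240, 340 and 192 CPM. Primary replicate 3 was 3.52-fold below primary replicate 1, and the lowest liver library was still 5.16-fold above the highest primary one. This was a log2 change of 3.25 (SE 0.48, adjusted p = 0.00212 in edgeR). Dpt, on chromosome 1 at 164796663 to 164824274, encodes dermatopontin, a small matrix protein that binds decorin. It followed the same order within the primary group, with 2.95, 1.42 and 0.522 CPM (120, 41 and 21 reads), and held 14.3, 14.3 and 10.9 CPM in the liver libraries. Its log2 change was 3.01 (SE 0.56, adjusted p = 0.00669 in edgeR).

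Mfap5 went the other way. It encodes a microfibril-associated glycoprotein of elastic tissue and lies on chromosome 6 at 122513584 to 122529290. The primary libraries held 21.1, 6.58 and 6.39 CPM (858, 190 and 257 reads) and the liver libraries 0.615, 0.750 and 0.892 CPM (14, 22 and 30 reads). Primary replicate 1 was 3.30-fold above primary replicate 3, the lowest of its group, and all 3 liver libraries were below 1 CPM. The log2 change was -3.90 (SE 0.56, adjusted p = 0.00179 in edgeR), from 11.4 ± 8.43 to 0.753 ± 0.139 CPM (SD, n = 3 per site). Without primary replicate 1, the library with the adrenal and endocrine transcripts, it was -3.09 and still called (adjusted p = 0.000915).

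**Figure D2:**
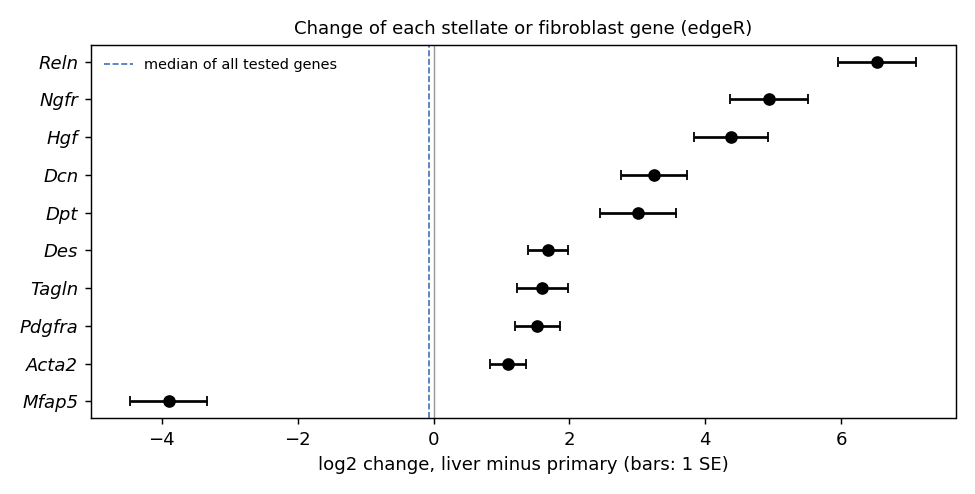
Log2 change from primary to liver tumors (horizontal) of each of the 10 genes (vertical), with bars of 1 SE from edgeR; the dashed line is the median of all tested genes (-0.07). Reln, Ngfr and Hgf lie above 4, Des, Tagln, Pdgfra and Acta2 between 1 and 2, and Mfap5 alone lies below 0.

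Levels of different genes were compared per transcript length, in the authors' FPKM. In the primary tumors Acta2 (20.02 ± 5.78 FPKM) and Tagln (12.3 ± 6.70) led, followed by Dcn (4.63 ± 2.50), Mfap5 (3.14 ± 2.35), Des (1.07 ± 0.262), Dpt (0.943 ± 0.713) and Pdgfra (0.483 ± 0.114; SD, n = 3 for each). Hgf (0.107 ± 0.0569 FPKM), Ngfr (0.0833 ± 0.0681) and Reln (0.0200 ± 0.0173) were lowest. In that order the values of neighbouring genes overlapped between libraries except from Tagln to Dcn, from Mfap5 to Des and from Pdgfra to Hgf. In the liver tumors Dcn (44.5 ± 14.0 FPKM), Acta2 (43.5 ± 10.9) and Tagln (37.9 ± 10.3) had overlapping values, and the next gene was Dpt (7.69 ± 1.25), which overlapped neither Tagln nor Des. Des (3.49 ± 0.770), Ngfr (2.77 ± 0.736), Hgf (2.22 ± 1.23), Reln (1.97 ± 0.913) and Pdgfra (1.41 ± 0.458) formed a run in which each overlapped the next, and Mfap5 was last and apart (0.210 ± 0.0400 FPKM). Dcn thus held the third place in the primary tumors and stood level with Acta2 in the liver tumors, and Mfap5 moved from the fourth place to the last.

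Reads of each gene were also set against those of Dcn in the same library, a ratio that no library scaling can change; this comparison was chosen after the values were seen. Per 1000 Dcn reads, Acta2 had 1279, 863 and 2939 reads in the primary libraries and 249, 282 and 392 in the liver libraries. Acta2 thus had fewer reads for each Dcn read in the liver tumors, although its own level was higher there; the ratio is not corrected for transcript length and does not rank the levels of the genes. Tagln (1073, 483 and 1674 against 254, 283 and 350), Pdgfra (166, 133 and 378 against 37.5, 51.2 and 82.5) and Des (116, 144 and 282 against 54.4, 45.9 and 53.9) also had lower ratios to Dcn in the liver tumors.

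Reln had 23.8, 8.24 and 28.2 reads per 1000 Dcn reads in the primary and 186, 198 and 137 in the liver libraries, and Ngfr 15.2, 3.09 and 21.1 against 33.5, 35.7 and 42.7. Mfap5 fell the furthest, from 566, 196 and 603 to 2.56, 2.21 and 4.64, a 145-fold difference of means. The ratios of these 7 genes did not overlap between sites, which gives the smallest p that 3 against 3 allows in a two-sided exact permutation test of the log2 ratios, 0.1, adjusted to 0.129 over the 9 ratios. Hgf ratios overlapped (17.8, 36.1 and 39.9 against 38.6, 74.5 and 66.7; exact p = 0.200, adjusted 0.225). Dpt kept nearly the same ratio, 56.9 ± 19.6 in primary and 52.8 ± 9.34 in liver tumors (SD, n = 3 per site; exact p = 0.900, adjusted 0.900).

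**Figure D3:**
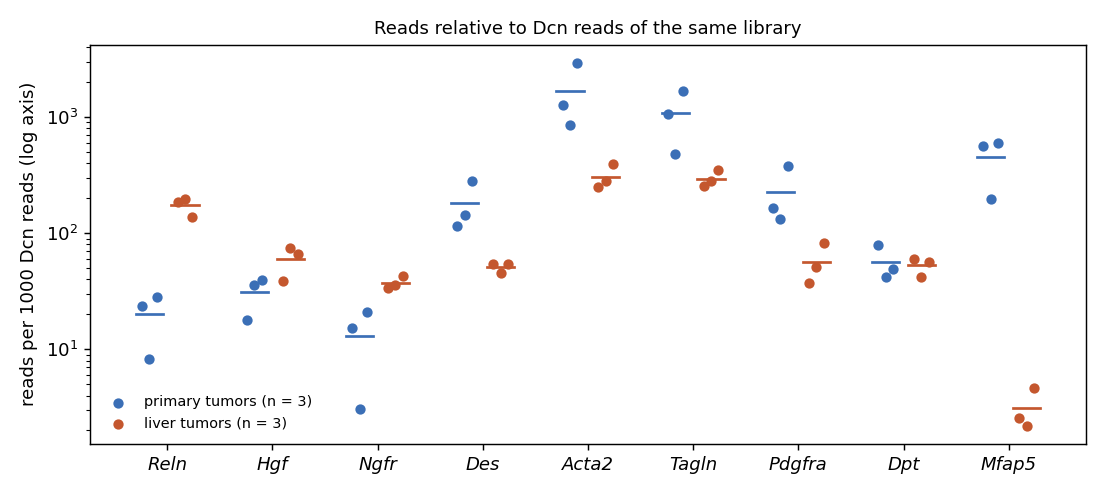
Reads per 1000 Dcn reads of the same library on a log axis (vertical) for the other 9 genes (horizontal); points are libraries, with 3 per site, and bars are group means. Reln and Ngfr lie higher in the liver tumors, Des, Acta2, Tagln, Pdgfra and Mfap5 lower, and Hgf and Dpt overlap.

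Of the 17 other tested genes of the wider stellate list 13 were called as higher in the liver tumors, and 4 of the 17 passed the filter on low counts only through the liver libraries. Of the 13 that would pass it in either group alone, 9 were called as higher, beside 16.7% of all tested genes. The median log2 change of all 21 tested genes of the list was 3.56, beside -0.07 over all tested genes. That median includes Lrat, Colec10, Lhx2, Hhip, Reln and Ngfr. These genes passed the filter only through the liver libraries, and each changed by more than the median. Lrat, which makes the retinyl esters stored by stellate cells, had 1 read in the primary and 1522 in the liver libraries, a ratio of 1951 (95% interval 350 to 77110, counting error only). Colec11, a soluble C-type lectin, rose from 0.606 ± 0.142 to 35.8 ± 15.1 CPM (SD, n = 3; log2 change 5.86, SE 0.44) and Vipr1, a receptor for vasoactive intestinal peptide, from 0.382 ± 0.0349 to 18.8 ± 7.05 CPM (5.60, SE 0.41). The lectin gene Colec10 had no primary reads and was at least 1381-fold higher, taking 3 reads in the whole group as its floor.

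Within the liver group, Reln, Lrat and Colec11 were each lowest in liver replicate 3, at 26.4, 13.9 and 18.95 CPM, as were Des, Dcn and Dpt. That library also had the lowest hepatocyte sum, 69680 CPM against 140400 and 130200. All 6 measured genes of the liver's sinusoidal endothelium were called as higher, beside 16.7% of all tested genes. Clec4g, Stab2 and Gpr182 passed the filter on low counts only through the liver libraries. Oit3, Dnase1l3 and Lyve1 would pass it in either group alone. The sum of all 6 was 5.24 to 10.97 CPM in primary tumors, with Clec4g at 0 reads. Among the liver libraries this sum was lowest in replicate 3 too, at 180 CPM against 307 and 302. Hgf, Ngfr, Acta2, Tagln, Pdgfra and Mfap5 did not share this order, with their lowest liver value in replicate 1, where the hepatocyte sum was highest. The part of host liver tissue in these results was not tested. Of the 6 lymphatic endothelial markers, a cell type that can also make reelin, 3 were called as higher (Prox1, Flt4 and Lyve1, the first of which hepatocytes also express and the last the sinusoids; Lyve1 not without liver replicate 1 or 2, adjusted p = 0.0543 and 0.0779), with sums of 11.01 to 25.1 CPM in primary and 106 to 165 CPM in liver tumors. The lymphatic chemokine gene Ccl21a stood at a mean of 1.46 CPM at both sites.

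Of the 14 other tested genes of the contractile list 3 were called as higher, beside 16.7% of all tested genes, 1 as lower and 10 were not called, and the median of all 17 was 0.54. Mylk, the kinase that activates smooth muscle myosin, rose from 29.8 ± 8.49 to 87.7 ± 12.9 CPM (SD, n = 3; log2 change 1.56, SE 0.24) and Myh11, the smooth muscle myosin heavy chain, from 1.57 ± 0.224 to 8.40 ± 3.30 CPM (2.42, SE 0.37). Lmod1 (1.60, adjusted p = 0.0270) and the 1 lower gene Tpm2 (-0.71, adjusted p = 0.0287) lost their calls without primary replicate 1 or 3 or liver replicate 1 or 2. The calponin gene Cnn1 (0.19, adjusted p = 0.819), Myl9 (0.43, adjusted p = 0.229) and Smtn (0.08, adjusted p = 0.877) did not pass. With Acta2, Tagln and Des included 6 genes were higher, and 3 without primary replicate 3 or liver replicate 2. Of 8 smooth muscle and pericyte markers 3 were called as higher (Myh11, Lmod1 and Abcc9), with sums of 67.0 to 87.5 CPM in primary and 105 to 143 CPM in liver tumors.

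Among matrix fibroblast genes, 6 of the 21 others were called as higher, 1 as lower and 14 were not called, with a median of 0.89 over all 25. Over all tested genes 16.7% were called as higher and 6.26% as lower. Igf1 (insulin-like growth factor 1) rose from 8.81 ± 2.89 to 470 ± 123 CPM (SD, n = 3), Cxcl12 (the chemokine that binds CXCR4) from 3.86 ± 2.69 to 257 ± 80.5 CPM, and Serpinf1 (pigment epithelium-derived factor) from 16.2 ± 8.05 to 392 ± 126 CPM; these 3 are also made by liver tissue. Aspn, which encodes the small leucine-rich protein asporin, was the 1 other gene called as lower, from 5.45 to 0.441 CPM (log2 change -3.59, SE 0.58, adjusted p = 0.00314), beside Mfap5. Aspn passed the filter on low counts only through the primary libraries, whereas Mfap5 would pass it in either group alone. Genes of this list that did not pass included, named after their values were seen, Pi16 (-0.75, adjusted p = 0.486), Clec3b (0.16, adjusted p = 0.909), Cd34 (-0.40, adjusted p = 0.204) and Thy1 (-0.09, adjusted p = 0.762).

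Genes of activated, tumor-associated fibroblasts differed little in number of calls. Of 18 tested, 1 was called as higher, 1 as lower and 16 were not called, with a median of -0.17. The shares over all tested genes were 16.7% higher and 6.26% lower. Fap (-0.32, SE 0.46, adjusted p = 0.659), Postn (periostin; -0.12, SE 0.47, adjusted p = 0.879) and Cthrc1 (-0.05, SE 0.34, adjusted p = 0.931) did not pass. Changes of the 16 genes not called ranged from -2.21 (Lrrc15, SE 0.75, adjusted p = 0.0684) to 1.26 (Has1, SE 0.79, adjusted p = 0.283). Lrrc15 passed the filter on low counts only through the primary libraries. The higher gene was the chemokine Cxcl1 (4.23, SE 0.45), which other cells also make. The lower one, the sphingosine kinase gene Sphk1 (-1.47, adjusted p = 0.0229), was not called without liver replicate 1, 2 or 3. Of the 7 fibroblast markers, which include Dcn, Dpt and Pdgfra, 5 were called as higher, and 3 of these 5 without liver replicate 2, where Col3a1 (adjusted p = 0.124) and Pdgfra (adjusted p = 0.0670) were lost. Col3a1 was also not called without primary replicate 2 or 3 or liver replicate 1 or 3. The collagen genes Col1a1 (1.17, adjusted p = 0.0877) and Col1a2 (1.15, adjusted p = 0.0895) did not pass. The summed level of all 7 fibroblast markers was 974, 374 and 348 CPM in the primary and 1395, 1814 and 1680 CPM in the liver libraries.

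**Figure D4:**
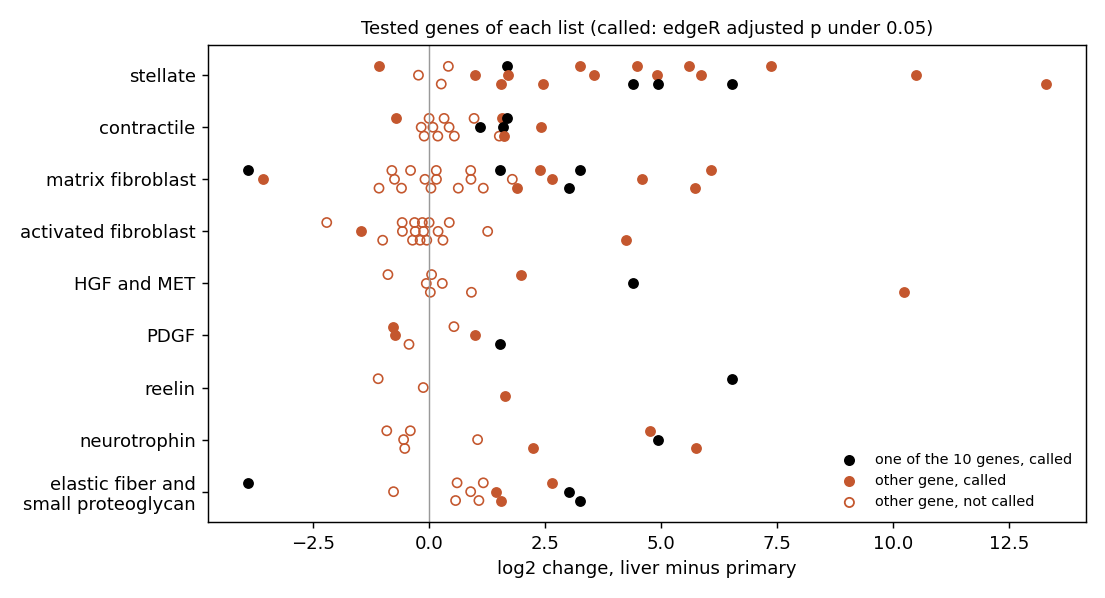
Log2 change from primary to liver tumors (horizontal) of every tested gene of 9 lists (vertical); filled points were called in edgeR at an adjusted p under 0.05, open points were not, and black points are the 10 genes. Stellate genes lie mostly right of 0, activated fibroblast genes mostly around it, and Mfap5 and Aspn stand apart on the left.

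Partners of the signaling genes were read in the same way. Beside Hgf, the transcript of its receptor Met was at 158 and 163 CPM (log2 change 0.05, SE 0.18, adjusted p = 0.861). The genes of 2 proteases that cleave pro-HGF rose: Hgfac by 1.97 (SE 0.41) and Hpn, a hepatocyte gene, by 10.23 (SE 0.38). These were the 2 called among the 8 genes of the list other than Hgf, beside 16.7% of all tested genes called as higher. Hpn passed the filter on low counts only through the liver libraries. Of the 7 that would pass it in either group alone, 1 was called as higher. Of the reelin partners, Lrp1 rose by 1.64 (SE 0.29), whereas the reelin receptor genes Vldlr (-1.10, adjusted p = 0.1) and Lrp8 (-0.13, adjusted p = 0.726) did not pass, and the adaptor gene Dab1 was too low to test.

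In the PDGF family, the receptor gene Pdgfrb rose beside Pdgfra (0.98, SE 0.24, adjusted p = 0.0216) while the ligand genes Pdgfb (-0.74, SE 0.17, adjusted p = 0.0182) and Pdgfc (-0.78, SE 0.17, adjusted p = 0.0142) fell. Without liver replicate 2 none of these 4 was called (adjusted p = 0.0670 to 0.103), and without liver replicate 1 or 3 Pdgfrb was not (adjusted p = 0.0745 and 0.0707). Pdgfb was also not called without primary replicate 3 (adjusted p = 0.0699). Of the neurotrophin genes other than Ngfr, 3 of 8 were called as higher, beside 16.7% of all tested genes. They were the ligand Ntf3, with 2 primary and 98 liver reads (ratio 62.8, 95% interval 16.9 to 526, counting error only), and the receptors Ntrk3 and Ntrk2. The receptors had mean levels of 1.08 and 1.56 CPM in the liver tumors. Ntf3, Ntrk3 and Ntrk2 passed the filter on low counts only through the liver libraries. Ntrk2 overlapped between sites, with liver replicate 1 at 0.396 CPM below primary replicate 1 at 0.442 CPM. It was not called in limma-voom (adjusted p = 0.0824), in a blocked fit on replicate number (adjusted p = 0.0788), on either FPKM scale (adjusted p = 0.290 and 0.164) or in 5 of 6 fits without 1 library (adjusted p = 0.0546 to 0.154). Ntrk3 was not called on either FPKM scale (adjusted p = 0.431 and 0.143). With a filter of 1 CPM in 3 libraries Ngfr was the only called gene of this list left.

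Matrix partners of Dcn, Dpt and Mfap5 split. Of 9 elastic fiber and small proteoglycan genes beside them, 3 were called as higher, beside 16.7% of all tested genes. These were Lum (lumican, 2.65, SE 0.49), Bgn (biglycan, 1.55, SE 0.37) and Fbn2 (fibrillin 2, log2 change 1.44, SE 0.42). Bgn and Fbn2 were not called without liver replicate 1, 2 or 3, and Fbn2 not without primary replicate 3; with Dcn and Dpt, 5 genes of the list were higher, 3 without any 1 liver library and 8 without primary replicate 1. Mfap2, the other microfibril-associated gene of the list, did not follow Mfap5 (0.57, SE 0.38, adjusted p = 0.311), and neither Eln (elastin; 0.89, SE 0.91, adjusted p = 0.517) nor Fbn1 (1.17, SE 0.42, adjusted p = 0.0808) passed.

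Profiles over the 6 libraries were compared by the root-mean-square difference of log2 CPM after centring each gene on its own mean, over the 11687 tested genes with a mean of at least 5 CPM. Closest to Reln were Igf1 (0.19), Dpp4 (0.19) and Rapgef4 (0.22). Closest to Acta2 were Zfyve9 (0.09), Lsp1 (0.11) and Cd53 (0.11), of which Lsp1 and Cd53 are leukocyte genes. The leukocyte markers had 4 of 5 called as higher, with sums of 338 to 570 CPM in primary and 681 to 780 CPM in liver tumors. Within the primary group the sum and Acta2 were highest in replicate 1, where Lyz2 held 449.9 CPM of the sum, whereas Ptprc was lowest there, at 19.3 CPM beside 23.4 and 20.9 CPM. Closest to Dcn were Cd36 (0.28), Gprc5c (0.30) and Colec12 (0.34). Among the 10 genes themselves Acta2 and Pdgfra were the most alike pair (0.22), and Dcn was closest to Dpt (0.39).

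The 7 mesothelial markers, a cell layer that also makes matrix genes, had 1 called as higher (Gpm6a, not without primary replicate 3 or liver replicate 2, adjusted p = 0.0506 and 0.0533, nor on log2(FPKM + 1), adjusted p = 0.0815) and 1 as lower (Msln, which tumor cells also express). Gpm6a passed the filter on low counts only through the liver libraries. The sums of the 7 mesothelial markers were 316 to 416 CPM in primary and 119 to 173 CPM in liver tumors, most of it Msln. Upk3b stood at 0.737, 1.42 and 0.323 CPM in the primary and 0.0879, 12.6 and 7.17 CPM in the liver libraries (adjusted p = 0.110). Upk1b, Lrrn4, Wt1 and Bnc1 had the same order: liver replicate 1 was below every primary library and liver replicates 2 and 3 above. Liver replicate 1 was also the lowest liver library for Hgf, Ngfr, Acta2, Tagln and Pdgfra, and the part of mesothelial cells in these results was not tested. Adipocyte markers (2 tested, not called) summed to 29.0 to 120 CPM and 27.9 to 43.6 CPM. Acinar markers (1 of 1 tested lower, Cela1) summed to 166 to 214 CPM and 45.4 to 61.3 CPM. Cela1 made up most of this acinar sum, with means of 172.8 (primary) and 53.7 CPM (liver). The other acinar markers were too low to test. Ctrb1, the highest of them, held 18.4 CPM in primary replicate 2 but 0.270 and 0.0497 CPM in primary replicates 1 and 3. Of the 7 adrenal and endocrine markers 6 could be tested and 5 were called as lower, beside 6.26% of all tested genes. Of these 5, Cyp11a1, Chga, Chgb and Dlk1 passed the filter on low counts only through the primary libraries. Of the 6 epithelial tumor markers 1 was called as lower (Msln). Of 7 endothelial markers 3 were called as higher, beside 16.7% of all tested genes. They were Kdr (2.01, SE 0.23), Cdh5 (0.87, SE 0.23) and Tie1 (0.72, SE 0.22). The other 4 were not called: Egfl7 (0.68, adjusted p = 0.0961), Pecam1 (0.56, adjusted p = 0.0956), Cldn5 (-0.23, adjusted p = 0.709) and Emcn (-0.55, adjusted p = 0.163).

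The sorts for CD45+ cells, a gate that stellate cells and fibroblasts should not pass, gave another reading of the 10 genes. Barcodes with 1500 or more UMIs, 200 or more genes and no more than 10% of UMIs from mitochondrial genes were taken as cells. This gave 2277 primary cells (median 12045 UMIs) and 7618 liver cells (median 6750 UMIs), with 7 barcodes called in both libraries. A UMI of Ptprc, the CD45 gene, was found in 1839 of the primary and 3754 of the liver cells. A missing UMI does not show that a cell lacks CD45. Some called cells carried fibroblast genes, as given below. With 1 library per site there is no test, and the intervals below are exact Poisson 95% intervals for counting error only. The 10 genes held 3869 UMIs in the primary and 1270 in the liver cells, or 123 and 18.4 CPM of all UMIs, the reverse of the order in bulk tissue. Dcn stood at 77.9 (74.9 to 81.1) CPM in the primary and 4.32 (3.84 to 4.83) in the liver cells.

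Barcodes not taken as cells hold free RNA, but not only that. Without the mitochondrial limit 5487 primary and 12499 liver barcodes would be taken as cells. At a minimum of 500 UMIs 52400 liver barcodes would be. Barcodes not taken as cells therefore give a mixed level for comparison and not a pure background. In the liver library they held 9.04 (8.44 to 9.67) CPM of Dcn, 6.38 (5.87 to 6.91) of Acta2, 3.42 (3.06 to 3.82) of Tagln and 2.02 (1.75 to 2.34) of Pdgfra, each above the level in the cells (4.32, 3.61, 0.898 and 0.637 CPM). The liver values of the 9 genes other than Hgf were at or below that level. As means over all called cells, these values are not read as expression across the sorted cells. A mean does not show UMIs held by few cells, which are given below. In the primary library Dcn (16.4 CPM outside cells, 15.3 to 17.5) and Pdgfra (3.12, 2.65 to 3.64, against 5.76 in cells) lay above the level outside cells with Hgf. The intervals of the other 7 genes overlapped that level, again as means over all called cells.

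Few cells carried most of the Dcn UMIs. In the primary library, 14 called cells had UMIs of at least 3 of Col1a1, Col1a2, Col3a1, Lum and Lrat, a rule written after the bulk values were seen. These 14 cells held 2412 of 2447 Dcn UMIs, 168 of 181 Pdgfra UMIs, 141 of 222 Acta2 UMIs and 35 of 39 Mfap5 UMIs. They had a median of 45517 UMIs and 3 had a UMI of Ptprc (CD45). In the liver library 15 cells met the rule (median 11274 UMIs, 7 with a Ptprc UMI) and held 180 of 298 Dcn, 6 of 44 Pdgfra and 25 of 249 Acta2 UMIs. Cells with a Ptprc UMI held 542 of the primary Dcn UMIs and 164 of the liver ones. Doublets were not removed. Reln had no UMI in the primary cells, for which the exact upper bound is 0.117 CPM, and 1 in the liver cells; Ngfr had 1 and 4.

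Hgf was spread otherwise. Of its 888 UMIs in primary cells 5 lay in the 14 cells above, and 547 cells had at least 1; in the liver library 589 UMIs lay in 465 cells and none in the 15. Cells with a Ptprc UMI held 32.3 (30.2 to 34.5) CPM of Hgf in the primary and 12.8 (11.7 to 13.9) in the liver library. Among them, cells with the macrophage gene C1qa and not the neutrophil gene Csf3r stood at 33.9 (30.8 to 37.2) and 12.8 (11.5 to 14.2) CPM, a gate chosen after values were seen. Barcodes not taken as cells held 12.1 (11.2 to 13.1) CPM of Hgf in the primary and 3.87 (3.48 to 4.29) in the liver library. Hgf in called cells lay above that mixed level in both. Cells with a UMI of the epithelial gene Epcam and none of Ptprc held 0 in the primary (34 cells, median 11242 UMIs; interval to 4.22) and 0.615 (0.200 to 1.43) in the liver library (665 cells, median 6544 UMIs). Over the whole sort Hgf was thus higher in the primary library, at 28.3 (26.4 to 30.2) against 8.53 (7.86 to 9.25) CPM, while in bulk tissue every liver library was above every primary one.

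**Figure D5:**
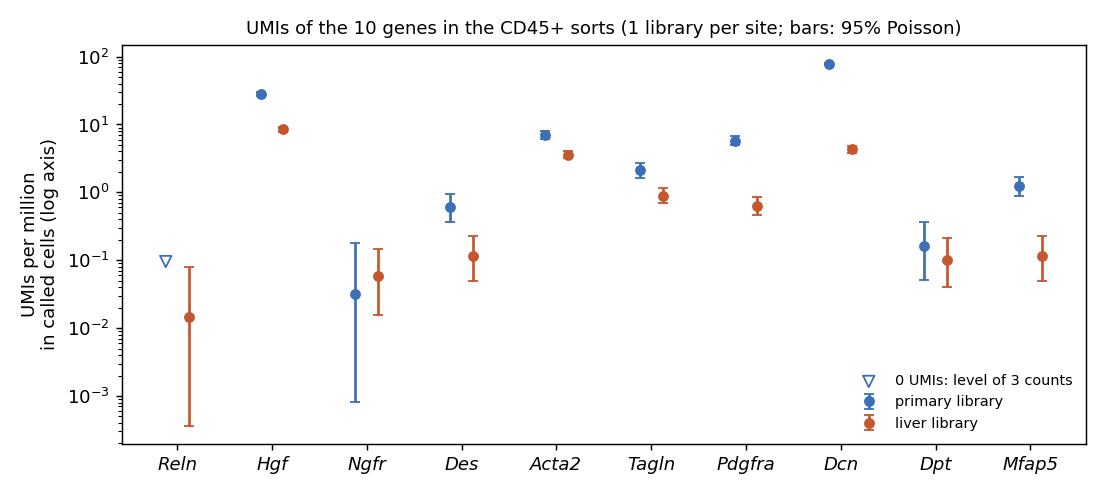
CPM of UMIs in called cells on a log axis (vertical) for the 10 genes (horizontal), with 1 library per site and exact Poisson 95% intervals; the open triangle marks 0 UMIs at the level of 3 counts. Hgf and Dcn lead in both libraries, and Reln and Ngfr rest on 0 to 4 UMIs.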

How the data were processed

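The authors deposited raw read counts per gene symbol for 6 bulk libraries and FPKM for the same libraries; the aligner and counter are not given in the sources used here, and the submitters' processing notes name bcl2fastq, Cell Ranger and mm10 without roles. Per the file headers, the authors' single-cell matrices are raw UMI counts over 6794880 barcodes, written by software version 3.0.0. Samples were grouped by title. The main test was edgeR 4.0.16 (R 4.3.3) with TMM factors, filterByExpr, a robust quasi-likelihood fit on site alone, two-sided, with Benjamini-Hochberg adjustment over 16487 genes; the procedure was tested on simulated data. An SE is the log2 change divided by the root of the F statistic. CPM use TMM-scaled totals. Same-numbered libraries deviated together at correlations of -0.18, 0.25 and 0.09 and were not paired. Alternatives were DESeq2 1.42.0, limma 3.58.1 (voom, and log2(FPKM + 1) and log2(FPKM + 0.1) of the deposited FPKM), other scalings and filters, a block and leaving out each library. Profile distances used log2(CPM + 0.5). The 10 genes and all lists were chosen with earlier results of these data known. Genes named beside the 10 were the called list genes with the 3 smallest p-values per list, the nearest profiles, and the marker genes; Colec10, Tpm2, Aspn and the genes given as not passing were picked after their values were seen. Promoter windows were matched by symbol for 7 of the 10 genes. Some list genes are not reported here.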

Additional observations from a re-analysis of the deposited data

How the results depend on the processing

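All 10 genes kept their direction and call under each of the 10 settings other than leaving out a library (DESeq2, limma-voom, RLE and upper-quartile factors, 2 filters, a replicate block, 2 FPKM scales and scaling without the genes over 100-fold higher). Of 60 values with 1 library left out, 53 kept the call and all kept the direction. The ranges were 0.92 to 1.36 for Acta2, 1.38 to 2.14 for Tagln and 1.36 to 1.74 for Pdgfra, whose calls could be lost, and 6 to 9 of the genes were called as higher. With the replicate number as a block, 2703 genes were higher and 873 lower, the contractile list had 0 lower genes and the reelin list 1 lower; the labels do not say that a number marks a pair. Upper-quartile factors gave 1689 lower genes, against 1032, and moved the median of all genes to -0.16. Lower genes of the HGF list numbered 1 in DESeq2, with upper-quartile factors, without a filter and with the genes over 100-fold higher left out of the scaling, and lower activated fibroblast genes 2 in DESeq2. Higher neurotrophin genes numbered 1 with the filter of 1 CPM and 2 on either FPKM scale. The log2(FPKM + 1) scale shrank low genes, with Reln at 1.496 and Mfap5 at -1.64. With 1 library left out, higher genes ranged from 1810 (without liver replicate 2) to 3346 and lower ones from 134 (without liver replicate 2) to 1468, with 414 without liver replicate 1 and 606 without primary replicate 3. Over the lists, higher genes then ranged from 3 to 7 (contractile), 0 to 2 (PDGF) and 3 to 8 (elastic fiber), and lower genes from 0 to 1 (stellate, contractile, HGF, reelin and neurotrophin), 0 to 3 (activated fibroblast), 0 to 2 (PDGF) and 1 to 2 (elastic fiber). The summed CPM of the 10 genes in single cells was 102 in the primary cells without a mitochondrial limit and 21.4 in the liver cells at a minimum of 500 UMIs, which called 52400 cells there. The cause of these shifts was not tested. Depth limits the lowest values: Ngfr in primary replicate 2 rests on 3 reads.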
